A study of Mus musculus with 5 samples.

Results

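The genes described here are those of the interferon-regulated families by symbol: the interferons and their receptors, the Irf transcription factors, the Irgm, Igtp and Iigp immunity-related GTPases, the Gbp guanylate-binding proteins, and the Ifi, Ifit, Ifitm, Oas, Mx, Isg, Usp18, Rsad2, Eif2ak2 and Tap genes. The platform annotation named 1 such gene for 61 probes, which gave 60 genes, and 45 of these had values on at least 4 of the 5 arrays, out of 9727 genes measured that way. By the lists used, 14 of the 45 were type II targets, 17 type I targets, 7 ligands or receptors and 7 other members.

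Interferons are secreted cytokines that switch on large sets of defence genes. Type I interferons (interferon-alpha and -beta) signal through the receptor of Ifnar1 and Ifnar2, the kinases Jak1 and Tyk2 and a complex with Irf9 that binds the interferon-stimulated response element. Type II interferon (interferon-gamma, made mainly by T cells and natural killer cells) signals through Ifngr1 and Ifngr2, the kinases Jak1 and Jak2, and its targets often carry a gamma-activated site. Many genes answer to both, so a type I or type II target is here a gene known for its stronger response to one of them.

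Each of the 5 arrays compared the lung RNA of 1 C3H mouse that had received ovalbumin, an egg-white allergen, as sensitisation and as challenge, with RNA from a pool of control C3H lungs, both amplified. C3H is an inbred strain. The labels give no age, sex, genotype, dose or day for either group and no number of mice in the pool, and the pool is the only control, so the test rests on how much the 5 ova mice vary, while variation among control mice does not enter it. The deposited values are log ratios, whose base is not stated. They are taken here as log2, since the largest size, 5.17, would be an implausible fold in base 10, and were centred on each array's median. In whole lung, a change in the number of cells of a type and a change in RNA per cell cannot be told apart.

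The labels do not settle which sample is the numerator, so genes are placed on the negative (below 0) or positive (above 0) side. For orientation, Retnla, a secreted protein gene of alternatively activated macrophages and airway epithelium, lay between -5.17 and -4.41 in the 5 mice, and Clca1, a goblet cell gene, between -4.77 and -3.69. Across probes, values spread less in mouse 1 (SD 0.20) than in the other mice (SD 0.32 to 0.38). The arrays held values for 11778 to 13320 of 17280 probes.

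A gene is called negative or positive here where limma's moderated test against 0 gave a Benjamini-Hochberg adjusted p under 0.05 over all genes. Of the 45 genes, 19 were called negative and 0 positive. At an unadjusted p under 0.05 there were 2 positive genes, Ifih1 and Ifna4. Over all genes tested, 15.0% were called negative, 12.3% positive and 27.3% either. Below 0 on every array with a value were 21 of the 45, against 20.9% of all genes, and a mean ratio below -0.5 was found for 14 of 45, against 4.22% of all genes. A mean below -1 was found for 6 of 45, against 1.26% of all genes. The median of the 45 mean ratios was -0.19, against -0.00 over all genes.

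The promoters of some genes with large ratios, and of some type I targets with small ratios, show how the motifs that these pathways use are laid out. The sequences are the 160 bases before the start site, 5′ to 3′ on the gene's strand, from RefSeq on GRCm38.p6. The capitals mark matches to the core of the response element, which is GAAA, any 2 bases and GAAA again on either strand, and to the core of the gamma-activated site, TTCNNNGAA, which reads the same on both strands. The genes shown were chosen after their values were seen. Irgm1, Irgm2, Igtp, Gbp3, Gbp2 and Oas1g all lay on the negative side, while Ifit3 lay near 0, Rsad2 was weakly negative and Isg15 had values on only 3 arrays.
Irgm1 (chr11:48871421-48871580, minus strand): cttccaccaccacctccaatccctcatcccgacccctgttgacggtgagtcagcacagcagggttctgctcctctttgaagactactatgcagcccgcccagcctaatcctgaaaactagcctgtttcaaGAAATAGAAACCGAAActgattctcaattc
Irgm2 (chr11:58214817-58214976, plus strand): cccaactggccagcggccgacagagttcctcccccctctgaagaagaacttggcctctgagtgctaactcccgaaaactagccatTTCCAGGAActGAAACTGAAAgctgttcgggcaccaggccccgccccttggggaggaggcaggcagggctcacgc
Igtp (chr11:58199396-58199555, plus strand): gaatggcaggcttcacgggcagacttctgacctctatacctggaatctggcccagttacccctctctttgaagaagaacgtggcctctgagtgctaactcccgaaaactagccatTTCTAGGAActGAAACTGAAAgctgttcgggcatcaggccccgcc
Gbp3 (chr3:142559884-142560043, plus strand): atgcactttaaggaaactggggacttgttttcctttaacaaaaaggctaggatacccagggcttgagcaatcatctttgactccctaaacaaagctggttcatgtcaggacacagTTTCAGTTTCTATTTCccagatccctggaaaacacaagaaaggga
Gbp2 (chr3:142620503-142620662, plus strand): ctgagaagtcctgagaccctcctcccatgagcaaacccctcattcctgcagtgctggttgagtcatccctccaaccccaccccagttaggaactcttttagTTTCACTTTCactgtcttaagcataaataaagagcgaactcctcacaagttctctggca
Oas1g (chr5:120887614-120887773, minus strand): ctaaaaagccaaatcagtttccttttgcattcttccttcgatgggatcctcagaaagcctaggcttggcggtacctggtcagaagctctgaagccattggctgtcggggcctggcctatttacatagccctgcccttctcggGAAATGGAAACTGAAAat
Isg15 (chr4:156200819-156200978, minus strand): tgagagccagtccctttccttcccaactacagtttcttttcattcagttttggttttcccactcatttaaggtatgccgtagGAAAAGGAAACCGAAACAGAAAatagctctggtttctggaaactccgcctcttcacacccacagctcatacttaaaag
Rsad2 (chr12:26456453-26456612, minus strand): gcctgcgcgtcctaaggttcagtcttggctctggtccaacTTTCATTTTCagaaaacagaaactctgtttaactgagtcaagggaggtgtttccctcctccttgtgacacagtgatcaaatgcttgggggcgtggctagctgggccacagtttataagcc
Ifit3 (chr19:34583369-34583528, plus strand): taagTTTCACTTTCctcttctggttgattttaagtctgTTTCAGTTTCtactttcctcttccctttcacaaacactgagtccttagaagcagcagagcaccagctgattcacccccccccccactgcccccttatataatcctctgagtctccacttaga

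Irgm2 and Igtp, which lie next to each other on chromosome 11, held the same pair of motifs. In each the gamma-activated site core was followed 2 bases later by the response element core, starting at positions -75 and -64 from the start site in Irgm2 and at -45 and -34 in Igtp. Set against each other at an offset of 30 bases, their printed stretches shared 107 of 130 bases (82.3%), with a longest identical run of 38 bases. Irgm1, Gbp3 and Oas1g each held 2 overlapping response element cores within 45 bases of the start. Isg15 held 3, which started farther away at positions -78, -72 and -66.

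Across all members, 47 had a promoter window of 300 bases (250 before to 50 after the start) in the RefSeq table. Of these 47 genes, 23 (48.9%) held the response element core in at least 1 window, against 3.99% of 27025 genes, and 14 (29.8%) held the gamma-activated site core, against 9.55%. Of the 36 tested members with a window, the response element core was present in 9 of 15 past the threshold and in 7 of 21 not past it, and the gamma-activated site core in 5 of 15 and 6 of 21. Both cores were present in 2 of 15 past the threshold (Irgm2 and Igtp) and in 2 of 21 not past it (Ifitm3 and Irf2). Within type I targets the response element core was present in 3 of 7 past the threshold and in 2 of 5 not past it. Within type II targets it was present in 6 of 8 past the threshold. Among all tested type II targets with a window it was found in 6 of 11, and among type I targets in 5 of 12. For the gamma-activated site core the counts were 4 of 11 and 2 of 12. These are matches of letters in a fixed window, not measured binding, and no test was made of the shares.

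**Figure D1:**
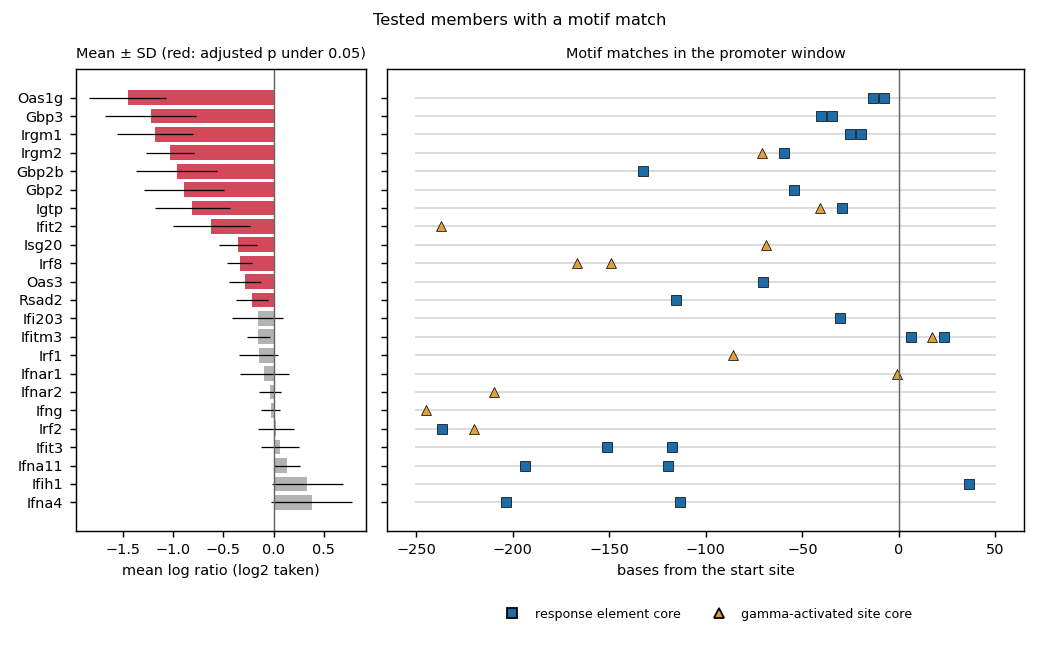
Left, mean log ratio ± SD over the mice of each tested member with a motif match in its promoter window (red, limma adjusted p under 0.05). Right, position of each match in bases from the start site, with squares for the response element core and triangles for the gamma-activated site core. Irgm2 and Igtp carry both motifs, as do Ifitm3 and Irf2, which did not pass the threshold. Ifit3, Ifna11 and Ifna4 carry 2 response element cores each with ratios from 0.06 to 0.38.

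Of the 14 type II targets, limma called 11 negative and 0 positive (0 positive also at an unadjusted p under 0.05), beside 15.0% and 12.3% of all genes. All 14 means lay below 0, with a median of -0.74. The 5 arrays gave class medians of -0.33, -0.64, -0.73, -0.97 and -0.84 for mice 1 to 5.

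The immunity-related GTPases attack the vacuoles of intracellular parasites and bacteria, and 4 of the 5 measured were called negative. Iigp1 had ratios of -0.72, -1.30, -1.94, -1.77 and -0.98 in mice 1 to 5, a mean of -1.34 ± 0.52 (SD, n = 5, limma adjusted p = 0.00183). Irgm1, a regulator of the other GTPases, had -0.72, -0.95, -1.40, -1.15 and -1.70 (mean -1.18 ± 0.38, adjusted p = 0.0011). Both were below -0.7 in every mouse, with the smallest size in mouse 1.
Irgm2, a second regulatory member, had -0.72, -0.90, -1.13, -1.07 and -1.35 (mean -1.03 ± 0.24, adjusted p = 0.000551). Igtp, also named Irgm3, had -0.45, -0.64, -0.83 and -1.32 in mice 1, 2, 3 and 5 and no value in mouse 4 (mean -0.81 ± 0.37, n = 4, adjusted p = 0.00603). Irgm1, Irgm2 and Igtp all had their lowest value in mouse 5 and their highest in mouse 1. Across all probes, too, values spread least in mouse 1 (SD 0.20) and most in mouse 5 (SD 0.38).
Ifi47, another GTPase of this family, stood apart from them. Its ratios were -0.04, -0.06, -0.08, -0.00 and 0.05 in mice 1 to 5, a mean of -0.03 ± 0.05 (adjusted p = 0.659, limma's 95% interval -0.13 to 0.07). In every mouse it lay above Iigp1, Irgm1, Irgm2 and Igtp where these had a value, a difference that was not tested. Related genes of the family may share signal on a probe, which was not tested. With no spot intensities, how far the signal of the Ifi47 probe stood above background is not known.

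The guanylate-binding proteins, GTPases that coat pathogens and their vacuoles, passed in all 4 measured cases. Gbp3 had -0.63, -1.04, -1.53, -1.15 and -1.79 in mice 1 to 5 (mean -1.23 ± 0.45, adjusted p = 0.00157). Gbp2b, known earlier as Gbp1, had -0.60, -0.47, -1.38, -1.23 and -1.14 (mean -0.97 ± 0.40, adjusted p = 0.00256), and was higher in mice 1 and 2 than in mice 3 to 5.
Gbp2 had -0.32, -0.75, -1.04, -0.97 and -1.40 (mean -0.89 ± 0.40, adjusted p = 0.00326). Gbp8 had -0.32, -0.73, -0.43, -0.61 and -0.62 and a smaller mean of -0.54 ± 0.16 (adjusted p = 0.00155). All 4 genes lay below 0 in all 5 mice. The probe of Gbp3 lies 18 IDs from that of Rac2 (mean -1.06). Probes that lie 6, 12, 18 or 24 IDs from a probe with a mean beyond 1 in size were left out as an alternative, and the part of such a neighbour in a ratio was not tested.

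The remaining type II targets serve antigen presentation and transcription. Ifi30, a lysosomal thiol reductase used in antigen processing, had -0.21, -0.63, -0.63, -1.20 and -0.70 (mean -0.67 ± 0.35, adjusted p = 0.00603), with the largest size in mouse 4. Tap2, a chain of the peptide transporter that loads MHC class I, was below 0 in every mouse, between -0.35 and -0.15 (mean -0.27 ± 0.09, adjusted p = 0.00639). Its partner Tap1 was 0.07 in mouse 3, the remaining mice lying between -0.30 and -0.19 (mean -0.17 ± 0.14, adjusted p = 0.0728), and passed only without mouse 3 (mean -0.23, limma adjusted p = 0.029, range over its alternatives 0.029 to 0.197).
Irf8, a transcription factor of macrophages and B cells, ranged from -0.50 to -0.17 (mean -0.34 ± 0.12, adjusted p = 0.00445). Irf1, the first-wave transcription factor of the interferon-gamma response, was 0.15 in mouse 4, the remaining mice lying between -0.39 and -0.14. Its mean was -0.15 ± 0.19 (adjusted p = 0.171), and it passed without mouse 4 alone (mean -0.22, limma adjusted p = 0.0384, range over its alternatives 0.0384 to 0.418).

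Type I targets were divided. Of 17 measured, limma called 7 negative and 0 positive (1 positive, Ifih1, at an unadjusted p under 0.05), beside 15.0% and 12.3% of all genes. The median was -0.21. Without mouse 3 it was -0.13, but over 21 genes, since genes with values on at least 3 of the remaining arrays then entered. The class medians were -0.04, -0.16, -0.26, -0.16 and -0.41 in mice 1 to 5. In each of the 5 mice the type II median lay below the type I median, by between 0.28 and 0.80 (mean difference -0.49 ± 0.19, SD, n = 5). No test was made of this difference between lists, whose genes were sorted with results of these data known.

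**Figure D2:**
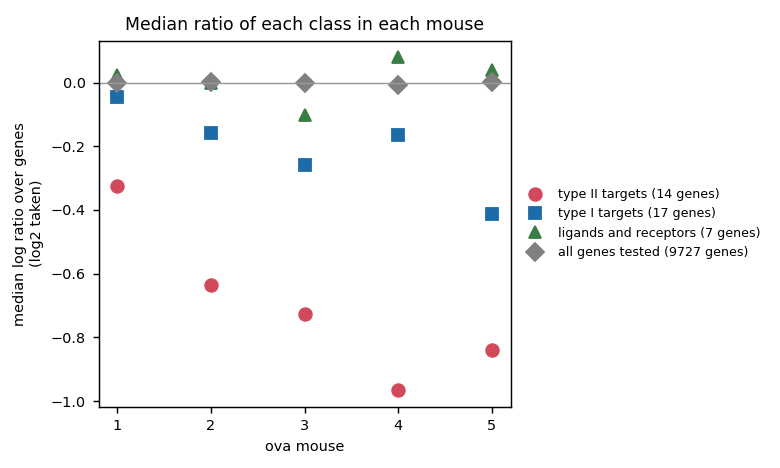
Median log ratio over genes (vertical axis, log2 taken, arrays centred) in each of the 5 ova mice, for type II targets, type I targets, ligands and receptors, and all genes tested. Type II medians run from -0.33 to -0.97 and lie below the type I medians, -0.04 to -0.41, in every mouse.

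The type I target with the largest ratio, and the largest of all members, was Oas1g, an oligoadenylate synthetase that senses double-stranded RNA. It had -0.97, -1.71, -1.44, -1.22 and -1.93 in mice 1 to 5, a mean of -1.45 ± 0.38 (n = 5, limma adjusted p = 0.000649, 2.74-fold if the base is 2). Other Oas1 genes lay near 0. Oas1b had a mean of -0.07 ± 0.08 (adjusted p = 0.342) and Oas1h 0.07 ± 0.05 (adjusted p = 0.273). Neither gene overlapped Oas1g in its range over the mice. Near-identical Oas1 copies may share signal on the Oas1g probe, which was not tested.
Oas3, a larger synthetase of the same cluster, ranged from -0.46 to -0.04 (mean -0.29 ± 0.16, adjusted p = 0.0149). It did not pass without mouse 3 (limma adjusted p = 0.06) or mouse 5 (adjusted p = 0.0556), with a range over its alternatives of 0.00531 to 0.06.

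The synthetase-like genes lie next to each other on the chromosome. Oasl1, which represses translation of Irf7, had -0.34, -1.11, -0.99, -0.19 and -1.44 (mean -0.81 ± 0.53, adjusted p = 0.0119), so that mice 1 and 4 lay apart from the other 3. It did not pass without mouse 3 (mean -0.77, limma adjusted p = 0.0523, range over its alternatives 0.0029 to 0.0523). Oasl2 lay between -0.22 and 0.08 (mean -0.11 ± 0.12, adjusted p = 0.191).

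Ifi44l, a gene induced by virus infection, had -0.56, -1.07, -1.17, -0.60 and -1.60 in mice 1 to 5 (mean -0.9998 ± 0.43, adjusted p = 0.00274). Again mice 1 and 4 had the smallest sizes, mouse 1 being the array with the smallest spread across all probes. Isg20, an exonuclease that degrades viral RNA, was below 0 in every mouse, between -0.58 and -0.14 (mean -0.36 ± 0.19, adjusted p = 0.00972).

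The Ifit genes encode proteins that bind viral RNA. Ifit2 had -0.28, -0.23, -0.82, -0.63 and -1.16 (mean -0.62 ± 0.39, adjusted p = 0.0108). Its neighbour Ifit3 had 0.20, 0.19, -0.15, 0.21 and -0.14 (mean 0.06 ± 0.19, adjusted p = 0.571). Ifit2 was below Ifit3 in all 5 mice, by between 0.42 and 1.02, which was not tested. The probe of Ifit3 lies 12 IDs from one of S1pr1 (mean 1.01).

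Of the textbook type I targets that follow, Mx1 lay near 0, while Mx2, Rsad2 and Usp18 had small negative means. Mx1, a GTPase against influenza virus, was 0.18 in mouse 1, the remaining mice lying between -0.17 and -0.01 (mean -0.04 ± 0.14, adjusted p = 0.625, 95% interval -0.18 to 0.09). Mx2 had -0.26, -0.48, -0.08 and -0.05 in mice 1 to 4 (mean -0.22 ± 0.20, n = 4, adjusted p = 0.0881), with its probe 18 IDs from that of Oas1g. Rsad2, or viperin, ranged from -0.40 to -0.02 (mean -0.21 ± 0.16, adjusted p = 0.0434).
The call of Rsad2 was lost without mouse 2, 3, 4 or 5 (limma adjusted p = 0.0722, 0.138, 0.0758 and 0.139, with a range over its alternatives of 0.0269 to 0.139), and its probe lies 6 IDs from that of Gbp2. Usp18, the protease that removes Isg15 from proteins, is the only member with several probes, and they differed. The first gave a mean of -0.02 and the second one of -0.43, below 0 in all 5 mice, for an average of -0.22 ± 0.20 (adjusted p = 0.0645). Without mouse 1 the average passed (-0.29, adjusted p = 0.0264, range over its alternatives 0.0264 to 0.841).

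Irf9, the DNA-binding part of the type I complex, was 0.29 in mouse 4, the remaining mice lying between -0.43 and -0.14 (mean -0.17 ± 0.28, adjusted p = 0.225). It passed without mouse 4 (mean -0.29, limma adjusted p = 0.0215, range over its alternatives 0.0215 to 0.512), and its probe lies 6 to 12 IDs from those of Mrc1, Gstm1 and Mmp12, which have large ratios. Ifih1, the cytosolic RNA sensor MDA5, had the highest mean of the type I targets. Its ratios were 0.19, 0.57, 0.33, -0.16 and 0.75 (mean 0.33 ± 0.35, adjusted p = 0.073), and it passed as positive without mouse 4 (mean 0.46, limma adjusted p = 0.02, range over its alternatives 0.02 to 0.211). Ifi27l2b, a mitochondrial protein gene, lay between -0.06 and 0.21 (mean 0.11 ± 0.12, adjusted p = 0.182).

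**Figure D3:**
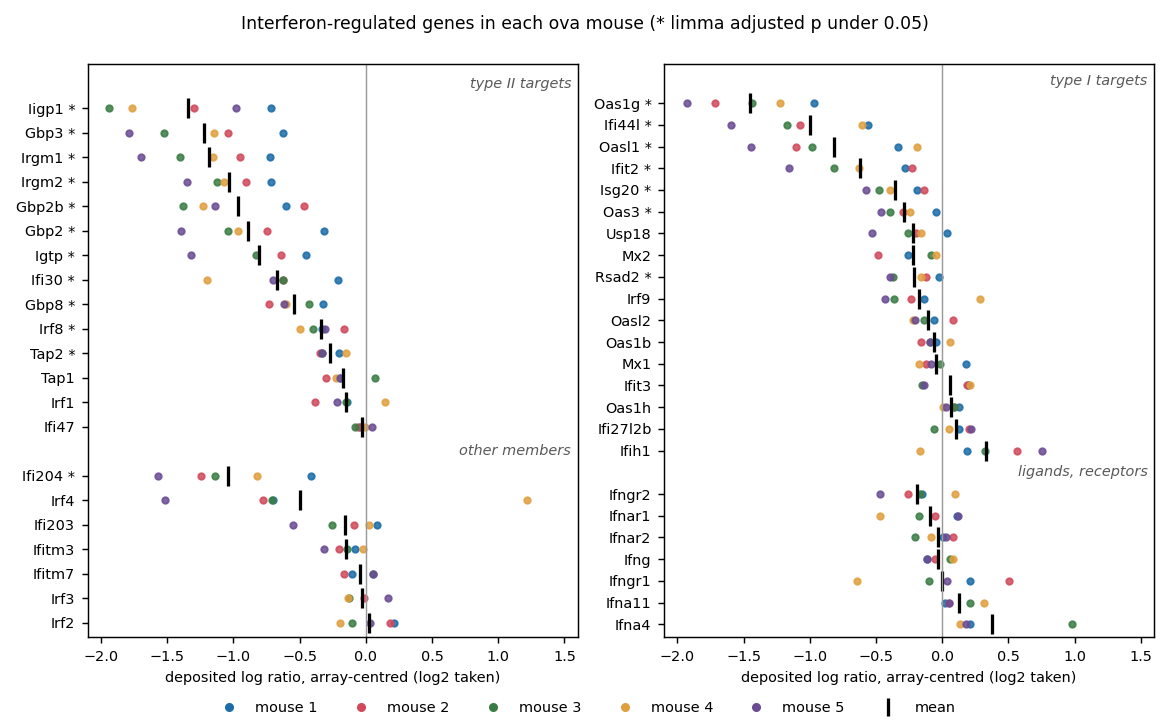
Array-centred log ratio (horizontal axis, log2 taken) of each of the 45 genes in each ova mouse (coloured points) with the mean (black bar), grouped by class; stars mark a limma adjusted p under 0.05. The GTPases and Gbp genes lie left of 0 in every mouse except for Ifi47, whereas type I targets run from Oas1g at -1.45 to Ifih1 at 0.33.

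Among the other members, Ifi204, a DNA-binding protein of the p200 family, had -0.42, -1.25, -1.14, -0.82 and -1.57 (mean -1.04 ± 0.44, adjusted p = 0.00256). Its relative Ifi203 ranged from -0.55 to 0.09 (mean -0.16 ± 0.26, adjusted p = 0.231). Irf4, a transcription factor of plasma cells, T cells and alternatively activated macrophages, was the most variable member, with -0.70, -0.78, -0.71, 1.22 and -1.51 in mice 1 to 5. Only mouse 4 lay above 0, and Irf4 passed without it (mean -0.92, limma adjusted p = 0.00875, range over its alternatives 0.00875 to 0.656), but not with all 5 mice (mean -0.50 ± 1.02, adjusted p = 0.297).
Ifitm3, which blocks virus entry, lay below 0 in all 5 mice, between -0.31 and -0.02 (mean -0.15 ± 0.11, adjusted p = 0.0689). Ifitm7, Irf2, a repressor of interferon genes, and Irf3, the sensor-activated factor that switches on interferon-beta, had means of -0.04, 0.02 and -0.03 with adjusted p-values of 0.651 to 0.819.

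Of the 7 interferons and receptor chains measured, limma called 0 negative and 0 positive, beside 15.0% and 12.3% of all genes, and the median was -0.03. At an unadjusted p under 0.05 there was 1 of each, Ifngr2 (negative) and Ifna4 (positive). Ifng itself had -0.11, -0.06, 0.06, 0.08 and -0.12 in mice 1 to 5 (mean -0.03 ± 0.09, adjusted p = 0.709, 95% interval -0.14 to 0.09). The probe gives no brightness, so how far its signal stood above background is not known.
The receptor chains varied more between mice. Ifngr1 ran from -0.64 in mouse 4 to 0.50 in mouse 2 (mean 0.00 ± 0.43, adjusted p = 0.994), and Ifngr2 was 0.10 in mouse 4, the remaining mice lying between -0.47 and -0.16 (mean -0.19 ± 0.21, adjusted p = 0.103). Ifngr2 passed without mouse 4 (mean -0.26, limma adjusted p = 0.0339, range over its alternatives 0.0339 to 0.282).
The type I receptor chains Ifnar1 (mean -0.09 ± 0.24, adjusted p = 0.465) and Ifnar2 (-0.03 ± 0.11, adjusted p = 0.672) had both signs among the mice. Of the interferon-alpha genes, Ifna11 lay between 0.03 and 0.32 (mean 0.13 ± 0.13, adjusted p = 0.128), with its probe 24 IDs from that of Saa3 (mean -3.88). Ifna4 had 0.21, 0.98, 0.14 and 0.18 in mice 1, 3, 4 and 5 (mean 0.38 ± 0.41, n = 4, adjusted p = 0.0931). Interferon-alpha genes are near-identical copies, so these probes may report several of them.

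The remaining 15 of the 60 genes had values on fewer than 4 arrays and were not tested. Oas2 was below 0 in mice 1, 2 and 5 (-0.30, -0.71 and -0.41), as was Isg15, the ubiquitin-like modifier (-0.03, -0.20 and -0.06). Ifnb1 gave -0.00, 0.65 and 0.22 in those same mice, and Ifi27 gave 0.35, 0.16 and 0.19. Oas1c (0.03, 0.27 and -0.07 in mice 2, 4 and 5) and Ifitm2 (-0.08, 0.09 and 0.33 in mice 1, 3 and 4) also had 3 values. Ifit1 had 2 values, -0.27 and -0.17, while Gbp4, Ifi27l2a, Ifi35 and Irf7 had 1 each, and Eif2ak2, Gbp7, Ifna6 and Irf5 had 0.

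The rest of the pathway was described through lists of genes that are not among the 45. In signal transduction, 3 of 8 measured genes were called negative and 0 positive (0 positive also at an unadjusted p under 0.05 in limma), beside 15.0% and 12.3% of all genes. Socs1, the feedback inhibitor of Jak kinases, had -0.50, -1.13, -1.09, -1.45 and -1.18 (mean -1.07 ± 0.35, limma adjusted p = 0.00117), below 0 in all 5 mice. Jak2, the kinase of the interferon-gamma receptor, had -0.25, -0.58, -0.55, -0.59 and -0.58 (mean -0.51 ± 0.15, adjusted p = 0.00155).
Tyk2, the kinase of the type I receptor, was 0.04 in mouse 3, the remaining mice lying between -0.32 and -0.29 (mean -0.23 ± 0.15, adjusted p = 0.029). It did not pass without mouse 1, 2, 4 or 5 (limma adjusted p = 0.0683, 0.0872, 0.0802 and 0.0948, with a range over its alternatives of 0.013 to 0.0948). Jak1 and Stat2 were not analysed here.

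Of 14 other type II targets, 10 were called negative and 1 positive, beside 15.0% and 12.3% of all genes, and their median was -0.33. Cxcl9, a chemokine for activated T cells, had the largest ratio, -2.22, -2.90, -4.14, -4.29 and -3.78 in mice 1 to 5 (mean -3.47 ± 0.88, adjusted p = 0.00055). Fcgr1, the high-affinity receptor for immunoglobulin G, came next with -0.40, -1.34, -1.52, -1.21 and -1.78 (mean -1.25 ± 0.52, adjusted p = 0.0024). Of the immunoproteasome subunits, which trim peptides for MHC class I, Psmb9 had -0.57 ± 0.10, Psmb10 -0.53 ± 0.28 (n = 4) and Psmb8 -0.34 ± 0.26. Tgtp1, an immunity-related GTPase outside the symbols used here, had -0.65, -1.06, -1.22, -0.67 and -1.69 (mean -1.06 ± 0.43, adjusted p = 0.00231).
Ciita, the master regulator of MHC class II genes, had a mean of -0.04 ± 0.06 (adjusted p = 0.59), and Nos2, the inducible nitric oxide synthase, -0.07 ± 0.14 (adjusted p = 0.413). Upp1, uridine phosphorylase, was the positive gene (0.29 ± 0.15, adjusted p = 0.0124). The negative calls numbered 5 when mouse 3 was left out and 6 when mouse 5 was. The call of Upp1 was lost in the latter case. Over all genes, negative calls fell too, from 1463 of 9727 to 943 of 10267 and 928 of 10021 in these fits. Psmb8 did not pass without mouse 2, 3 or 4, with limma adjusted p-values of 0.0512, 0.0501 and 0.0641 and a range over its alternatives of 0.00757 to 0.0641. Psmb10 did not pass without mouse 3 or 5, with 0.0503 and 0.0538 and a range over its alternatives of 0.00628 to 0.0538.

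Of 23 other type I targets, limma called 13 negative and 0 positive (0 positive also at an unadjusted p under 0.05), beside 15.0% and 12.3% of all genes. Their median was -0.22. Cxcl11, a chemokine for activated T cells induced by both interferon types, had -0.68, -1.07, -1.19, -1.03 and -1.71 (mean -1.13 ± 0.37, adjusted p = 0.00117). Zbp1, a sensor of Z-form nucleic acids, had -0.90 ± 0.21 (adjusted p = 0.000599), and Lgals3bp, a secreted galectin ligand, -0.67 ± 0.20 (adjusted p = 0.00133). Dhx58, a helicase that tunes RNA sensing, had -0.64 ± 0.29 (adjusted p = 0.00386). The negative calls numbered 8 without mouse 3 and 7 without mouse 5. Over all genes they numbered 943 of 10267 and 928 of 10021 in these fits, against 1463 of 9727 with all 5 mice. The medians of these lists, -0.33 for type II and -0.22 for type I, lay closer together than those of the members.

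Of 14 genes of MHC class I presentation, limma called 8 negative and 0 positive (1 positive, H2-M3, at an unadjusted p under 0.05), beside 15.0% and 12.3% of all genes. Their median was -0.24. H2-Q7, a non-classical class I gene, had -0.70 ± 0.17 (adjusted p = 0.000802), H2-T23, the ligand of natural killer cell receptors, -0.48 ± 0.12 (adjusted p = 0.00135), and Tapbp, the tapasin of the loading complex, -0.42 ± 0.18 (adjusted p = 0.0049). Pdia3 (-0.76 ± 0.23, adjusted p = 0.00114) belongs to this list and to the general folding machinery of the endoplasmic reticulum. B2m, the class I light chain, had -0.19 ± 0.23 and did not pass (adjusted p = 0.132). H2 genes are closely related and their probes may share signal.

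Of 12 genes upstream of interferon, 2 were called negative and 3 positive, beside 15.0% and 12.3% of all genes. Sting1, the adaptor of cytosolic DNA sensing, had -0.33, -0.99, -1.31, -0.86 and -1.18 (mean -0.93 ± 0.38, adjusted p = 0.00237). Tlr7, an endosomal RNA receptor, had -0.38 ± 0.25 (adjusted p = 0.0172), and Il12a, a chain of interleukin-12, 0.27 ± 0.20, above 0 in every mouse (adjusted p = 0.031). The calls of this list were not stable. The positive count was 1 without mouse 2 and 0 without mouse 3, 4 or 5, and the negative count 1 without mouse 3 or 4. Over all genes, calls of either side numbered 2656 in the main fit. They numbered 1898, 1678, 2111 and 1599 without mouse 2, 3, 4 and 5. Tlr7 did not pass without mouse 3 (limma adjusted p = 0.0639) or mouse 4 (0.0518), with a range over its alternatives of 0.00477 to 0.0639. Il12a did not pass without mouse 2, 3, 4 or 5 (0.0932, 0.0635, 0.0726 and 0.093), with a range over its alternatives of 0.0137 to 0.0932.

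Markers of several cell types also had ratios away from 0. Beside each count stand the shares of all genes called, 15.0% negative and 12.3% positive. Of 11 macrophage and monocyte markers, limma called 6 negative and 0 positive (0 positive also at an unadjusted p under 0.05), with array medians from -0.95 to -0.11, and the list includes Fcgr1, which interferon-gamma also induces. Of 5 neutrophil markers 4 were called negative (array medians -1.18 to -0.44), and of 9 B cell markers 7 were called negative and 1 positive (array medians -0.68 to -0.12). Of 11 markers of T and natural killer cells, 2 were called negative, Cd2 (-0.54) and Gzma (-1.09), and 1 positive, Gzmb (0.28), near the 15.0% and 12.3% of all genes. The list's array medians ran from -0.20 to 0.04. The CD3 subunit genes of the T cell receptor complex, Cd3e (-0.15) and Cd3d (0.07), did not pass.
Of 5 dendritic cell markers 1 was called negative, also near the share of all genes (array medians -0.15 to -0.01). Of 8 endothelial markers 7 were called positive (array medians 0.23 to 0.85), and of 12 lung epithelium markers, 5 were called positive and 3 negative (array medians -0.03 to 0.45). Defining genes of lung such as Sftpc and Scgb1a1 had values on at least 4 arrays. The part of these shifts in the ratios of the interferon-regulated genes was not tested.

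**Figure D4:**
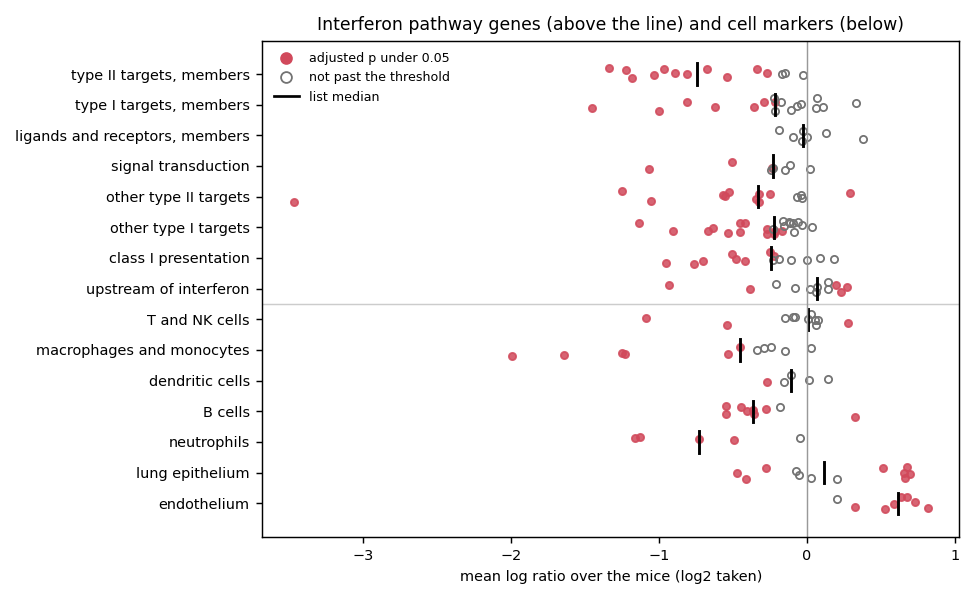
Mean log ratio (horizontal axis, log2 taken) of each measured gene of the member classes and pathway lists (above the line) and of cell markers (below), filled where the limma adjusted p is under 0.05, with the list median as a black bar. Type II targets have a median of -0.74, macrophage markers -0.46 and T and natural killer cell markers 0.01.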

How the data were processed

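Lung RNA of 5 ova C3H mice was hybridised against 1 pool of control lungs on 2-colour arrays. The deposited table, made by the authors, gives a signed log2 ratio (base 2 taken, not stated) per probe and array. For its normalization, dyes and numerator, nothing was stated in the sources used here, and with no spot intensities the depth of each value is unknown. The labels number the mice as separate animals. The platform annotation of GEO's records named 1 gene for 14722 of 17280 probes, 14445 of them with an identifier in the GRCm38.p6 gene table, with 0 symbols changed.

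Arrays were centred on their median, probes naming only 1 gene were averaged, and genes with values on at least 4 arrays (9727) were tested against 0 with limma 3.58.1 in R 4.3.3 (lmFit, eBayes, two-sided, Benjamini-Hochberg, threshold 0.05). The pool counts as 1 control sample. Data with the spread and blanks of the 9727 genes were simulated and a set of genes was shifted. The test recovered 97.6% of shifted genes at a shift of 1, 84.3% at 0.5 and 41.1% at 0.3. Of the calls, 4.03%, 5.49% and 4.86% were false. Noise was drawn independently for each array, with no error from the shared pool, and fewer genes were shifted than were called in the data. These shares are therefore not the error rates of the calls reported here. Genes named with values are the tested members, the 3 genes of smallest p of each pathway list and fixed pathway genes; the others were chosen after their values were seen. The members and lists were chosen with earlier results of these data known. Promoter windows come from RefSeq, GRCm38.p6, and hold 36 of the 45 genes. The alternatives tried were other centring and scaling, other filters on blanks, other probe averages, probes near strong probes left out, robust variance, array weights and each mouse left out. With a mouse left out, genes needed values on at least 3 of the other arrays, so more genes entered.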

Additional observations from a re-analysis of the deposited data

Results flagged for a closer look

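In each of 64 named genes the mouse farthest from the others was compared with the range of all. This marked 4 of them, and chance marks about 1 in 20. Ifna4 was 0.984 in mouse 3, against 0.137 to 0.21 in the 3 other mice with a value. Jak2 was -0.248 in mouse 1, against -0.594 to -0.55 in the others. Tyk2 was 0.039 in mouse 3, against -0.324 to -0.287. Psmb8 was -0.793 in mouse 5, against -0.309 to -0.163.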

How the results depend on the processing

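Of the 19 members past the threshold, 16 kept their call and side under all 15 alternatives that gave them a value. The other 3, Oas3, Oasl1 and Rsad2, lost it only when a mouse was left out. The median lay between -0.86 and -0.65 for type II and between -0.23 and -0.13 (without mouse 3) for type I targets. Fits without a mouse took genes with values on at least 3 arrays, so their lists could hold more genes. Without mouse 3 there were 21 type I targets, against 17 in the main fit. Under array weights, under arrays scaled to the same spread and under quantile normalization, Ifih1 passed, so that 1 member and 1 type I target lay on the positive side instead of 0. Under that scaling and quantile normalization 1 class I presentation gene passed on the positive side. Under quantile normalization 2 of the other members passed on the negative side. When 1 mouse was left out in turn, counts ran from 0 to 1 for members and type I targets on the positive side, from 0 to 1 for ligands and receptors and from 1 to 2 for other members on the negative side. They ran from 7 to 12 for other type I targets and from 5 to 10 for other type II targets (0 to 1 on the positive side). For genes upstream of interferon they ran from 1 to 2 on the negative and 0 to 3 on the positive side. Over all genes, negative calls in these fits ran from 928 to 1429, against 1463 in the main fit. With a mouse left out, means changed sign for Ifnar1 (-0.15 to 0.0005), Ifnar2 (-0.06375 to 0.00775), Ifngr1 (-0.12 to 0.16), Irf2 (-0.022 to 0.08) and Irf3 (-0.09133 to 0.008667), none of which passed. The causes were not tested. Leaving out probes near strong ones removed 5 members, and 18 of 40 then passed. No paired analysis was possible because the series holds 1 group and the pool is shared by all arrays. Without spot intensities, faint probes cannot be told from measured ones.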

Other observations

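Members that lie next to each other on a chromosome, with no protein-coding gene between them in the GRCm38.p6 table, did not always have like ratios. On chromosome 5, Oas1h was above Oas1g in all 5 mice, by between 1.10 and 1.96, and Oasl2 was above Oasl1 in 4 of 5 mice. On chromosome 19, Ifit2 and Ifit3 differed as described. On chromosome 3 the run of Gbp3, Gbp2b and Gbp2 had means of -1.23, -0.97 and -0.89, with differences between neighbours of both signs among the mice. On chromosome 11, Igtp and Irgm2 had means of -0.81 and -1.03, and Igtp was above Irgm2 in all 4 mice with both values, by between 0.03 and 0.30. These differences were not tested.

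The number of members below 0 was 31 of 44 in mouse 1, 35 of 44 in mouse 2, 38 of 45 in mouse 3, 31 of 43 in mouse 4 and 32 of 44 in mouse 5. Below -0.5 there were 8, 13, 14, 13 and 18 members. Over all genes tested, the array medians lay between -0.007 and 0.002. The spread across all probes was least in mouse 1 (SD 0.20) and most in mouse 5 (SD 0.38). The share of all genes below -0.5 on each array was not computed, so the differences between mice in these counts are not particular to the members. The lowest member was Oas1g in mice 1, 2 and 5 and Iigp1 in mice 3 and 4.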
